A study of Mus musculus with 18 samples.

Results

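Bone marrow adipocytes of 18-month-old mice were set against those of 6-month-old mice, with 3 arrays of each age and all genes of the array. These are 6 of the 18 arrays of the series. Both groups were male C57BL/6J mice on standard chow, with no other treatment or allele. Marrow was flushed from femurs and tibias, red cells were lysed and the cells that floated were collected, without a sort by surface marker. Each array held pooled RNA. Between 6 and 10 animals made up the 3 pools of a group, and a replicate is therefore a pool rather than 1 mouse. The other 12 arrays hold bone marrow cells of 14 months and epididymal adipocytes (labelled peripheral) of the same 3 ages, and enter the shared error of the model. Levels are log2 intensities as deposited, and a difference of 1 is a change of 2-fold.

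Bone marrow adipocytes are fat cells that lie among blood-forming cells, bone-lining cells and the sinusoidal vessels of the marrow cavity. They store triglyceride in a lipid droplet, release fatty acids by lipolysis and secrete adiponectin. Marrow fat increases with age in mice and in people. The marrow also holds macrophages that take up old red cells and recycle their iron, stromal cells that make Cxcl12 for stem cell retention, and large numbers of maturing neutrophils and erythroid cells.

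The label was first checked against markers. In both age groups of marrow the adipocyte genes were low and those of blood cells were high. Adipoq (adiponectin) lay at 7.14 ± 0.18 at 18 months and 8.08 ± 0.88 at 6 months in bone marrow, against 12.76 ± 0.13 and 12.56 ± 0.04 in the epididymal cells of 18 and 6 months (SD, n = 3 each). The lipid droplet genes Plin1 and Cidec were at 5.77 ± 0.42 and 5.50 ± 0.24 at 18 months and 6.07 ± 0.58 and 5.64 ± 0.52 at 6 months in bone marrow, close to the median of all probe sets on an array (5.88 to 6.06). All 27 measured genes of a mature adipocyte list were lower in each of the 6 bone marrow arrays than in each of the 6 epididymal arrays of these ages. By contrast, 23 of 24 erythroid genes and 16 of 18 genes of mature neutrophils were higher in every bone marrow array. The neutrophil genes S100a8 and Ngp reached 12.47 ± 0.03 and 12.94 ± 0.05 at 18 months and 12.76 ± 0.08 and 13.19 ± 0.06 at 6 months. The floated marrow cells therefore carry a large blood cell signal and are called the floated bone marrow cells below. The study reports that they stained for neutral lipid and perilipin, with a similar share of CD11b-positive cells as the epididymal preparation. Its quantitative PCR put Fabp4, Plin1, Lep and Adipoq above non-floating marrow cells and below epididymal adipocytes. In a bulk sample of the floated cells, fewer cells of a type and less RNA per cell cannot be told apart.

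**Figure D1:**
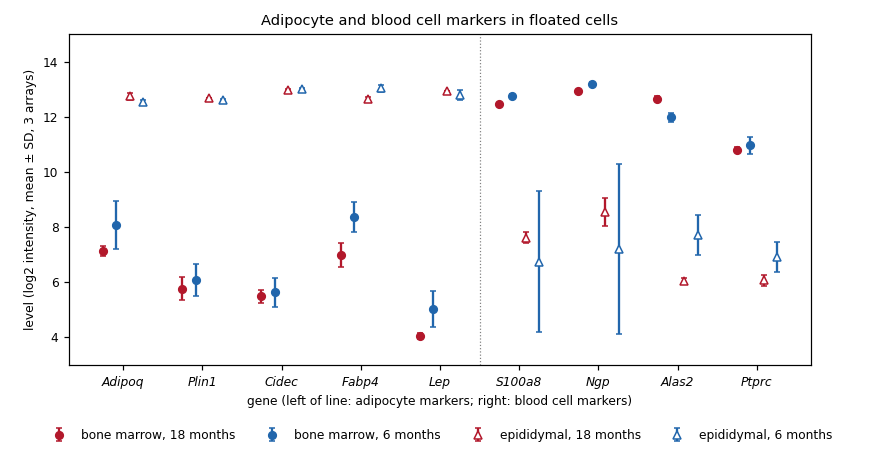
Levels (log2 intensity, mean ± SD, 3 arrays a group) of 5 adipocyte genes and 4 blood cell genes in bone marrow (filled circles) and epididymal cells (open triangles) at 18 months (red) and 6 months (blue). Adipoq is at 7.14 and 8.08 in bone marrow of 18 and 6 months and above 12 in epididymal cells, while Ngp is near 13 in bone marrow.

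One array stood apart within its group. The 6-month replicate 1 differed from the other 2 arrays of its group by 0.48 (root mean square over probe sets), and the other bone marrow arrays of 18 and 6 months by 0.21 to 0.37. It was the lowest of its group for 530 of the 790 probe sets that were higher at 18 months (67.1%, against 33.0% of all probe sets). It was the highest for 683 of the 1201 that were lower (56.9%, against 41.8%). The median SD of a probe set was 0.14 at 18 months and 0.22 at 6 months in bone marrow. The model assumes 1 error for all groups, which understates the spread of the 6-month arrays. Results are therefore given with 3 other fits where these change a call, namely one without 6-month replicate 1, one with an error weight for each group and one of the 9 bone marrow arrays alone.

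In the model of all 18 arrays, 790 of 23410 probe sets were higher at 18 months (3.37%) and 1201 were lower (5.13%), 8.5% in all, at an adjusted p under 0.05 (limma, Benjamini-Hochberg). Of these, 75 and 167 changed by at least 2-fold. Without 6-month replicate 1 the counts were 496 and 955 (2.12% and 4.08%), of which 372 and 698 were among those of the full model. With a weight for each group they were 230 and 385 (0.982% and 1.64%), and with the 9 bone marrow arrays alone 92 and 276 (0.393% and 1.18%). Other single arrays moved the counts as well. Without 18-month replicate 1, 2 and 3, there were 421, 326 and 474 higher (1.8%, 1.39% and 2.02%) and 650, 732 and 741 lower (2.78%, 3.13% and 3.17%). Without 6-month replicate 2 there were 635 and 1103 (2.71% and 4.71%), and without replicate 3 1795 and 2063 (7.67% and 8.81%). The 6 arrays alone gave 5 and 13 (0.0214% and 0.0555%, or 0.0769% together), with 3283 probe sets at an unadjusted p under 0.05. The share of calls that were higher depended on the scaling. It was 39.7% as deposited, and the counts were 1402 higher and 422 lower once the arrays were made equal on cytosolic ribosomal protein genes, which shifted the overall median by 0.14 from -0.05. Median-centred arrays gave 1116 higher and 853 lower. Counts of a gene list under these scalings, given below, stand beside these totals and are not particular to the list. In 20.2% of all probe sets the 18-month and 6-month values did not overlap. Groups apart were a condition of naming a gene for the size of its change, so that for such genes the lack of overlap is a description.

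**Figure D2:**
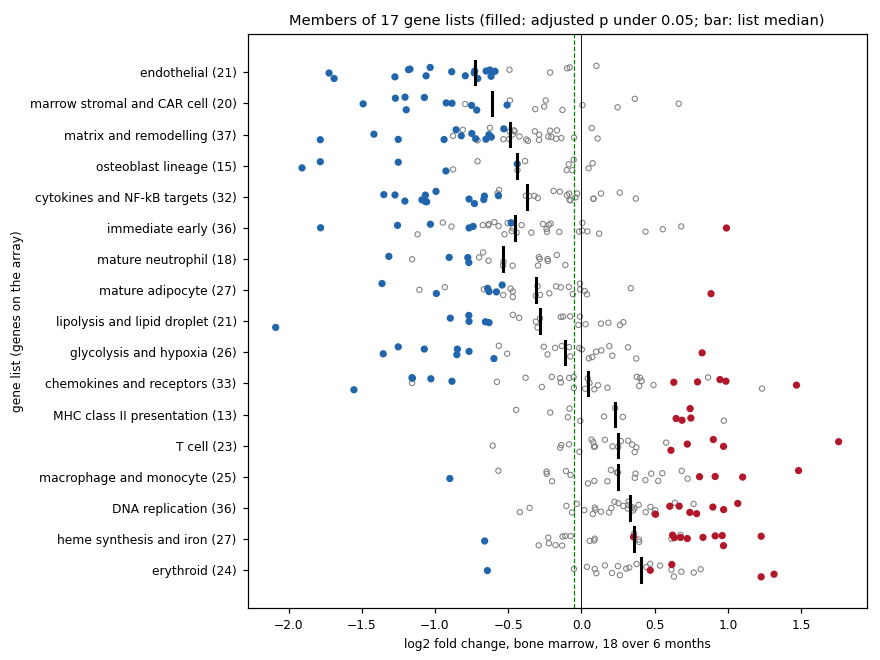
Log2 fold change at 18 over 6 months in bone marrow (x axis) of each member of 17 gene lists (y axis, genes on the array in brackets). Filled points passed an adjusted p of 0.05 (red higher, blue lower at 18 months), black bars are list medians and the dashed line is the median of all probe sets, -0.05. Endothelial genes have a median of -0.73 and erythroid genes one of 0.41.

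Some genes of resident macrophages rose strongly. Vsig4, a complement receptor of tissue-resident macrophages, lay at 7.05, 8.30 and 7.02 in the 3 arrays of 18 months and at 4.10, 3.89 and 4.25 in those of 6 months. The groups were far apart, and the rise was 10.3-fold (log2 fold change 3.37, SE 0.39, adjusted p = 0.000177). The 6-month values of Vsig4 lay below the median of an array. Cd163, the scavenger receptor for hemoglobin bound to haptoglobin, was at 7.24, 7.20 and 7.25 at 18 months and 5.21, 6.00 and 6.03 at 6 months (1.48, SE 0.27, adjusted p = 0.00302). Cd5l, a secreted protein of tissue macrophages, rose by 1.87 (SE 0.25, adjusted p = 0.000447). These 3 genes passed in each of the 6 fits that left out 1 array and with the 9 bone marrow arrays alone (adjusted p = 0.0044, 0.0418 and 0.0197).

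The rise did not extend over the whole macrophage and monocyte list, which holds Cd163 but neither Vsig4 nor Cd5l. Of its 25 genes on the array 4 rose and 1 fell, with a median of 0.25. Mean levels of the list were 8.42 to 9.04 at 18 months, the highest in replicate 2, and 8.35 to 8.38 at 6 months. The other 3 that rose were Timd4, a phosphatidylserine receptor for dead cells (1.10), Spic, a transcription factor of red pulp macrophages (0.81), and Slc40a1, the iron exporter ferroportin (0.91). The Fc receptor gene Fcgr3 fell by 0.90. None of these 4 passed with the 9 bone marrow arrays or with group weights, where Cd163 was the only member called. Timd4 was lost without 6-month replicate 3 (0.88) or 18-month replicate 2 (0.87). Spic was lost without 6-month replicate 2 (0.80) or 3 (0.67) or 18-month replicate 2 (0.42). Slc40a1 was lost without 6-month replicate 1 (0.53) or any single 18-month array (0.77 to 0.99), and Fcgr3 without 6-month replicate 1 (-0.62) or 18-month replicate 2 (-0.88) or 3 (-0.75). Without 18-month replicate 2, the array with the highest Vsig4, 1 member of the list rose. Without 6-month replicate 3, 2 rose.

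Genes of lymphocytes and antigen presentation rose in part. Ctla4, the inhibitory receptor of regulatory and activated T cells, had 7.30, 6.98 and 7.02 at 18 months and 5.48, 4.87 and 5.68 at 6 months. All 3 arrays of 18 months were above all 3 of 6 months (1.76, SE 0.17, adjusted p = 1.9e-05), and the call held in each fit named above, the 6 arrays alone included (adjusted p = 0.0369). Icos, a costimulatory receptor of T cells, rose by 0.90 (SE 0.19, adjusted p = 0.00744). Of 23 T cell genes 5 rose and none fell (median 0.25), the others being Cd28 (0.61), Cd8a (0.72) and Cd3g (0.97), which form or assist the T cell receptor complex. Ctla4 and Cd8a passed with the 9 bone marrow arrays (Icos, adjusted p = 0.074), and Ctla4 and Icos with group weights. Mean levels of the list were 6.02 to 6.21 at 18 months and 5.71 to 5.96 at 6 months. Without 18-month replicate 1 or 2 the count was 2 and 3. Cd28 was lost without 6-month replicate 2 (0.46) or 18-month replicate 1 (0.44) or 2 (0.65), Cd8a without 6-month replicate 1 (0.62) or 18-month replicate 1 (0.71), and Cd3g without 6-month replicate 1 (0.67) or 18-month replicate 1 (0.93) or 2 (0.78).

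P2ry10, a lysophospholipid receptor of lymphocytes, rose by 1.58 (SE 0.23, adjusted p = 0.000806), with 8.87, 8.51 and 8.30 at 18 months and 6.95, 6.56 and 7.44 at 6 months. Ccr3, the eotaxin receptor of eosinophils, rose by 1.47 (SE 0.23, adjusted p = 0.00125), with 7.42, 8.71 and 7.53 against 6.34, 6.43 and 6.48, so 18-month replicate 2 was again the highest. The immunoglobulin light chain segment Igkv6-20 had 11.39, 9.87 and 9.75 at 18 months and 8.71, 7.10 and 7.91 at 6 months (2.43, SE 0.61, adjusted p = 0.0186). This segment shares sequence with other light chain segments, so its source is uncertain, and its call was lost without 6-month replicate 2 (2.03), without 18-month replicate 1 (1.9) and with group weights. P2ry10 and Ccr3 passed in every fit that left out 1 array and with the 9 bone marrow arrays.

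Of 13 genes of MHC class II presentation 4 rose and none fell (median 0.23). H2-Aa and H2-Ab1 encode the chains of the class II molecule, H2-Ob a regulator of its peptide loading and Cd86 a costimulator on presenting cells. H2-Aa was at 11.71, 11.62 and 11.57 at 18 months and 10.96, 10.78 and 11.22 at 6 months, without overlap (0.65, SE 0.13, adjusted p = 0.00714). It passed in all 6 fits that left out 1 array, but it and the other 3 were not called with group weights or with the 9 bone marrow arrays alone (adjusted p = 0.0513 for H2-Aa). H2-Ab1 (0.69) was lost without 6-month replicate 1 (0.46) or 18-month replicate 1 (0.68) or 2 (0.68). Cd86 (0.75) was lost without 6-month replicate 2 (0.60) or 18-month replicate 2 (0.59). H2-Ob (0.74) was lost without 6-month replicate 2 (0.47) or any single 18-month array (0.73 to 0.76). The count was 2 without 18-month replicate 1 and 1 without replicate 2.

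**Figure D3:**
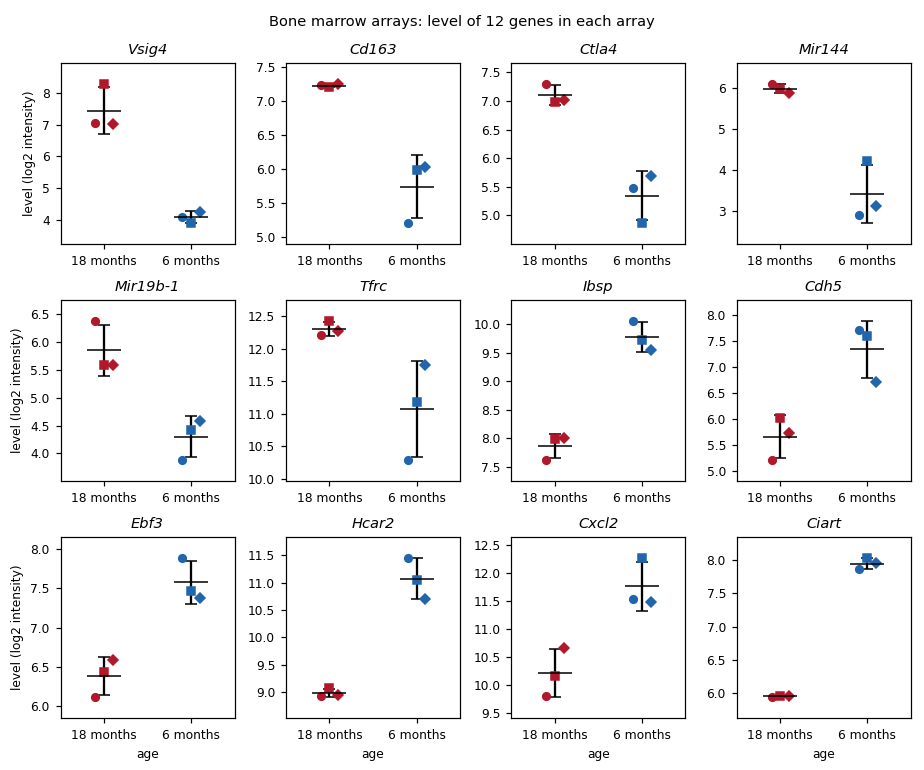
Level (log2 intensity) of 12 genes in each bone marrow array, 18 months (red, left) and 6 months (blue, right) in each panel. Circles are replicate 1, squares replicate 2 and diamonds replicate 3, and bars are the mean ± SD of 3 arrays. The 18-month values of Vsig4 run from 7.02 to 8.30, those of 6 months from 3.89 to 4.25, and each panel has its own y axis.

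Several microRNA genes rose, and their mature sequences are shown to identify the genes whose rises are described next. The seed is the stretch that pairs with a target. The array names the gene of each precursor, and whether the primary, hairpin or mature form was measured was not tested. Sequences are those of RefSeq (GRCm38.p6), 5′ to 3′, with the seed (bases 2 to 8) in capitals.
miR-144-3p (chr11:78073047-78073066, + strand): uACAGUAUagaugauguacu
miR-144-5p (chr11:78073010-78073032, + strand): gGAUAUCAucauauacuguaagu
miR-451a (chr11:78073186-78073207, + strand): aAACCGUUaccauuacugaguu
miR-687 (chr14:73206808-73206829, - strand): cUAUCCUGgaaugcagcaauga
miR-19a-3p (chr14:115044048-115044070, + strand): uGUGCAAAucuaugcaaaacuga
miR-19b-3p (chr14:115044358-115044380, + strand): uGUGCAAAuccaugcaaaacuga
miR-20a-5p (chr14:115044183-115044205, + strand): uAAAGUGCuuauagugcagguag
The miR-144 and miR-451a sequences lie side by side on chromosome 11, in a cluster known for its role in red cell maturation. The other cluster, on chromosome 14, holds miR-19a, miR-20a and miR-19b within the span of the polycistron known as miR-17-92, which is known to promote cell proliferation. The 2 miR-19 sequences share their seed. The miR-687 gene lies apart from this cluster on the same chromosome and shares its seed with none of the others shown.

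Mir144 was at 6.09, 5.95 and 5.86 at 18 months and 2.91, 4.22 and 3.12 at 6 months. The 18-month arrays agreed closely and lay well above all those of 6 months (2.55, SE 0.21, adjusted p = 4.15e-06), and at 14 months the 3 values were 3.13, 3.05 and 3.01. The rise passed in all fits named above, the 6 arrays alone included (adjusted p = 0.0311). Mir451a, its neighbour, was at 5.39, 6.25 and 5.45 at 18 months and 4.26, 5.06 and 4.86 at 6 months (0.97, SE 0.21, adjusted p = 0.00829). It passed without each single array in turn, but not with the 9 bone marrow arrays (adjusted p = 0.0772). Mir687 had 6.15, 6.18 and 6.04 at 18 months and 4.91, 4.71 and 5.05 at 6 months (1.23, SE 0.18, adjusted p = 0.000695), also with the 6 arrays alone (adjusted p = 0.0256). The microRNA genes of this and the next paragraph lay below the median of an array at 6 months and near or below it at 18 months.

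Of the chromosome 14 cluster, Mir19b-1 had 6.38, 5.58 and 5.60 at 18 months and 3.88, 4.43 and 4.59 at 6 months. It rose by 1.56 (SE 0.25, adjusted p = 0.00129) and passed with the 9 bone marrow arrays (adjusted p = 0.0274). Mir20a had 6.16, 6.05 and 5.96 against 3.73, 4.59 and 5.68, and Mir19a had 5.20, 4.74 and 4.83 against 2.90, 3.92 and 4.57. In both, 6-month replicate 1 was the lowest array and replicate 3 came near the 18-month values. Mir20a (1.39, adjusted p = 0.0202) was lost without 6-month replicate 1 (0.92) or 18-month replicate 1 (1.33) or 2 (1.39), and Mir19a (1.13, adjusted p = 0.0269) without 6-month replicate 1 (0.68) or any single 18-month array (0.99 to 1.22). Neither was called with the 9 bone marrow arrays.

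Genes of erythroid cells and of heme and iron handling were higher at 18 months for a minority of members by the test. Tfrc, the transferrin receptor that brings iron into erythroid cells, was at 12.21, 12.43 and 12.27 at 18 months and 10.29, 11.19 and 11.75 at 6 months (1.23, SE 0.25, adjusted p = 0.00573). The 6-month arrays spread more widely than those of 18 months, and the groups did not overlap. Of 24 erythroid genes 4 rose and 1 fell (median 0.41), against 8 and none with equal ribosomal protein genes, and 22 of the 24 had a fold change above 0. Besides Tfrc these were the erythroid transcription factor Gata1 (0.62), the membrane skeleton gene Add2 (0.47), Bpgm, the enzyme that makes bisphosphoglycerate (1.32), and, falling, the transcription factor Nfe2 (-0.64). Mean levels of the list were 10.15 to 10.34 at 18 months and 9.77 to 9.90 at 6 months.

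Tfrc alone of these 5 was called in every fit that left out 1 array, and it missed the threshold with the 9 bone marrow arrays (adjusted p = 0.0552) and passed with group weights, where it was the 1 member called. The 1 member called with the 9 bone marrow arrays was Rhag, a membrane glycoprotein of red cells. Gata1 was lost without 6-month replicate 2 (0.54) or 18-month replicate 2 (0.50). Add2 was lost without 6-month replicate 1 (0.48) or 2 (0.43) or 18-month replicate 2 (0.36) or 3 (0.46). Bpgm was lost without 6-month replicate 1 (0.82) or 18-month replicate 1 (1.21) or 3 (1.28). Nfe2 was lost without 6-month replicate 1 (-0.44) or any single 18-month array (-0.56 to -0.69). The count of erythroid rises was 2 without 6-month replicate 1 or 2 or 18-month replicate 2 or 3, and 6 without 6-month replicate 3. Hbq1a, a globin gene of the alpha cluster that the list does not hold, had 6.86, 6.49 and 6.63 at 18 months and 5.05, 5.26 and 5.71 at 6 months (1.32, SE 0.21, adjusted p = 0.00137, and 0.017 with the 9 bone marrow arrays).

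Of 27 genes of heme synthesis and iron 10 rose and 1 fell (median 0.36). Slc25a38, the mitochondrial glycine carrier that feeds heme synthesis, had 10.45, 10.40 and 10.56 at 18 months and 9.55, 9.34 and 10.03 at 6 months (0.83, SE 0.14, adjusted p = 0.0023). Slc25a39, the mitochondrial glutathione carrier, rose by 0.97 (SE 0.18, adjusted p = 0.00353). Abcg2, a transporter of porphyrins outside the list, rose by 1.18 (SE 0.25, adjusted p = 0.0074), with 9.86, 9.84 and 9.57 against 7.75, 8.88 and 9.09. Cpox, an enzyme of heme synthesis, rose by 0.96 and was lost without 6-month replicate 1 (0.66) or 18-month replicate 1 (0.92) or 2 (0.94). The list counted 6 rises without 6-month replicate 1, 4 to 5 without 18-month replicate 2 or 1, 5 with group weights and 1 with the 9 bone marrow arrays. Of the genes named here, Slc25a38 passed in that fit (adjusted p = 0.0366).

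Of 36 DNA replication genes 8 rose and none fell (median 0.33), among them Gins1, a subunit of the replicative helicase (0.97, SE 0.18, adjusted p = 0.00327), and Pola1, the catalytic subunit of the priming polymerase (0.79, SE 0.16, adjusted p = 0.00644). Gins1 was at 7.83, 7.92 and 7.85 at 18 months and 6.60, 6.70 and 7.39 at 6 months. The count was 4 without 6-month replicate 1 or 2, 5 without 18-month replicate 1 and 2 without 18-month replicate 2 or 3, 2 with group weights and 1 with the 9 bone marrow arrays. Gins1 passed in that last fit (adjusted p = 0.0328). Other lists of dividing cells did not show this at 18 against 6 months. Of 31 genes of mitosis none rose and 1 fell (median 0.12). Of 25 replication-dependent histone genes 1 rose and 1 fell (median -0.04).

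A share of the genes of vessels, stroma and bone fell. Of 21 endothelial genes 16 fell and none rose, with a median of -0.73. Mean levels of the list were 6.21 to 6.39 at 18 months and 6.91 to 7.21 at 6 months. Cdh5, the cadherin of endothelial junctions, was at 5.21, 6.03 and 5.74 at 18 months and 7.72, 7.60 and 6.72 at 6 months (-1.69, SE 0.25, adjusted p = 0.000786). Emcn (endomucin), a sialomucin of venous and sinusoidal endothelium, was at 5.16, 5.21 and 4.99 at 18 months and 7.81, 6.57 and 6.15 at 6 months (-1.72, SE 0.32, adjusted p = 0.00351). At 18 months both lay near or below the median of an array. Flt4, the receptor for Vegfc (-1.27), Plvap, the diaphragm protein of fenestrated vessels (-1.18), Mmrn2, an endothelial matrix protein (-1.17), and Stab2, a hyaluronan scavenger receptor of sinusoids (-1.06), fell with adjusted p values of 0.00303 to 0.00408.

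These 6 genes passed in each fit that left out 1 array. With the 9 bone marrow arrays 5 genes of the list passed, Cdh5, Emcn, Flt4 and Plvap among them, while Mmrn2 (adjusted p = 0.0525) and Stab2 (0.0546) did not. Group weights gave 7. The count was 10 without 6-month replicate 1 or any single array of 18 months. Pecam1, which platelets and leukocytes also carry, was at 7.87, 7.89 and 7.89 at 18 months and 7.92, 8.18 and 8.19 at 6 months (-0.21, SE 0.12, adjusted p = 0.289). Rgs5, a marker of pericytes, which wrap small vessels, had 6.34, 6.73 and 6.66 at 18 months and 7.98, 8.10 and 7.91 at 6 months (-1.42, SE 0.24, adjusted p = 0.00208, and 0.0184 with the 6 arrays alone).

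Of 20 genes of marrow stromal cells 10 fell and none rose (median -0.61), and mean levels were 7.68 to 8.0 at 18 months and 8.36 to 8.43 at 6 months. Ebf3, a transcription factor of the Cxcl12-abundant reticular cells of the marrow, was at 6.12, 6.44 and 6.59 at 18 months and 7.89, 7.47 and 7.38 at 6 months (-1.20, SE 0.16, adjusted p = 0.000451). Grem1, a secreted inhibitor of bone morphogenetic proteins, fell by 1.20 on the log2 scale (SE 0.27, adjusted p = 0.0115). Gas6, a ligand of Tyro3-Axl-Mer receptors, fell by 1.27 (SE 0.24, adjusted p = 0.00405). Cxcl12 itself was at 10.10, 10.23 and 10.30 at 18 months and 10.91, 11.24 and 11.14 at 6 months. Its groups were apart by more than their spread (-0.88, SE 0.21, adjusted p = 0.0164), and its call was lost without 18-month replicate 1 (-0.83). Lepr, the leptin receptor and the usual marker of these cells, differed by -0.49 (SE 0.18, adjusted p = 0.103). The count was 4 without 18-month replicate 1 and 2 both with group weights and with the 9 bone marrow arrays, where Ebf3 and Grem1 were the 2 called (adjusted p = 0.0197 and 0.0172).

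Of 15 genes of the osteoblast lineage 5 fell and none rose (median -0.44). Ibsp, the bone sialoprotein of mineralizing matrix, had 7.62, 7.98 and 7.99 at 18 months and 10.05, 9.72 and 9.55 at 6 months. The fall was 3.75-fold (-1.91, SE 0.22, adjusted p = 0.000177) and held in every fit, the 6 arrays alone included (adjusted p = 0.0116). Sparc (osteonectin), which binds collagen and calcium, fell by 1.78 on the log2 scale (SE 0.24, adjusted p = 0.000406), with 7.93, 8.22 and 8.22 against 10.09, 10.36 and 9.28. Alpl, the phosphatase of mineralization, fell by 0.93 (SE 0.18, adjusted p = 0.00512), but not with the 9 bone marrow arrays (adjusted p = 0.0677). Col1a1, the main collagen of bone, differed by -1.25, and its 6-month arrays ran from 8.23 to 10.37. It was lost without 6-month replicate 2 (-0.67) or any single 18-month array (-1.17 to -1.35). The transcription factor Dlx5 (-0.44) was lost without 6-month replicate 1 (-0.40) or 2 (-0.33) or 18-month replicate 1 (-0.43) or 2 (-0.37). The count was 3 without 6-month replicate 2 or 18-month replicate 1 or 2, and 2 with the 9 bone marrow arrays.

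Of 37 genes of the extracellular matrix, a list that shares members such as Sparc and Col1a1 with that of the osteoblast lineage, 12 fell and none rose (median -0.49). Outside this list, Igfbp7, a secreted binding protein of vessels and fibroblasts, was at 7.77, 8.36 and 8.20 at 18 months and 11.05, 9.63 and 9.66 at 6 months (-2.00, SE 0.29, adjusted p = 0.000795). It is 1 of 19 genes of a fibroblast list, of which 7 fell and none rose (median -0.46), with 5 falls under group weights and 2 with the 9 bone marrow arrays. Pcolce, an enhancer of procollagen processing that neither list holds, had 6.97, 7.17 and 7.25 at 18 months and 8.24, 8.29 and 8.23 at 6 months (-1.12, SE 0.16, adjusted p = 0.000636, and 0.0311 with the 6 arrays alone). Within the matrix list Bgn, the proteoglycan biglycan, fell by 1.42 on the log2 scale (SE 0.29, adjusted p = 0.00671), Nid1, a basement membrane linker, by 0.94 (SE 0.17, adjusted p = 0.00257) and Col6a1, a chain of the pericellular collagen VI, by 0.86 (SE 0.16, adjusted p = 0.00363). Bgn and Nid1 were not called with the 9 bone marrow arrays (adjusted p = 0.0588 and 0.0532), and 2 members of the matrix list were. Group weights gave 6, leaving out 18-month replicate 1 or 3 gave 6 and leaving out 6-month replicate 2 gave 8.

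Several genes of inflammation fell in the same comparison. Hcar2, the receptor for hydroxybutyrate and niacin that restrains lipolysis in fat cells and is also carried by neutrophils and macrophages, was at 8.93, 9.07 and 8.94 at 18 months and 11.45, 11.05 and 10.70 at 6 months. The fall was 4.25-fold (-2.09, SE 0.17, adjusted p = 4.15e-06). Acod1, the mitochondrial enzyme of activated macrophages that makes itaconate, was at 10.11, 10.01 and 10.05 at 18 months and 11.84, 11.58 and 11.50 at 6 months (-1.58, SE 0.20, adjusted p = 0.000344). Both passed in every fit, the 6 arrays alone included (adjusted p = 0.0116 each). Il1f9, a cytokine of the interleukin-1 family (-1.33), and the nucleotide receptor gene P2ry2 (-1.34) also passed with the 6 arrays alone (adjusted p = 0.0189 and 0.0148). P2ry2 was at 6.17, 6.40 and 6.47 at 18 months and 7.72, 7.65 and 7.68 at 6 months.

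Of 32 cytokines and targets of NF-kB, the transcription factor of inflammatory signalling, 13 fell and none rose (median -0.37). Csf1, the growth factor of macrophages, was at 6.80, 7.85 and 7.63 at 18 months and 8.58, 9.09 and 8.65 at 6 months (-1.35, SE 0.22, adjusted p = 0.00151). Osm, a cytokine of the interleukin-6 family, fell by 1.21 on the log2 scale (SE 0.21, adjusted p = 0.00251). Irak3, an inhibitor of Toll-like receptor signalling, fell by 1.09 (SE 0.15, adjusted p = 0.000447), and Ptgs2, the inducible cyclooxygenase, by 1.07 (SE 0.19, adjusted p = 0.0028). Nfkbia, the inhibitor that NF-kB itself induces, fell by 0.73 (SE 0.13, adjusted p = 0.00311). Tnf, by contrast, differed by -0.56 (SE 0.19, adjusted p = 0.0666), with 8.71, 9.19 and 8.89 against 9.34, 9.89 and 9.25, and passed without 6-month replicate 3 (-0.68). The list counted 7 without 18-month replicate 1, 7 with group weights and 6 with the 9 bone marrow arrays, in which the 5 genes that fell above all passed.

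Of 33 chemokines and their receptors 10 were called, 5 in each direction (median 0.04), against 7 that rose and 5 that fell with equal ribosomal protein genes. Cxcl2, a chemokine that attracts neutrophils, was at 9.80, 10.16 and 10.65 at 18 months and 11.54, 12.26 and 11.48 at 6 months (-1.55, SE 0.23, adjusted p = 0.000786). Ccl3, a chemokine of activated myeloid cells (-1.03), its receptor gene Ccr1 (-1.16), the atypical receptor gene Ccrl2 (-1.15) and Cxcl12 (-0.88) fell too. Those that rose were Ccr3, the monocyte chemokine genes Ccl7 (0.95, SE 0.15, adjusted p = 0.0012) and Ccl8 (0.63), Cxcl5 (0.99, SE 0.22, adjusted p = 0.00943) and the interferon-induced Cxcl10 (0.79). Ccl8 was lost without 6-month replicate 3 (0.51) or 18-month replicate 1 (0.54) or 2 (0.51), Cxcl10 without 6-month replicate 2 (0.60) or 18-month replicate 2 (0.75) or 3 (0.74), and Cxcl12 without 18-month replicate 1 (-0.83). These 3 were the ones that missed the threshold with the 9 bone marrow arrays. Without 18-month replicate 2, 3 rose.

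The promoters of Cxcl2 and Nfkbia are shown because they hold a full NF-kB motif, in capitals, in the 250 bases before to 50 after the start (RefSeq, GRCm38.p6, 5′ to 3′ on the strand of the gene).
Cxcl2 (chr5:90903649-90903948, + strand): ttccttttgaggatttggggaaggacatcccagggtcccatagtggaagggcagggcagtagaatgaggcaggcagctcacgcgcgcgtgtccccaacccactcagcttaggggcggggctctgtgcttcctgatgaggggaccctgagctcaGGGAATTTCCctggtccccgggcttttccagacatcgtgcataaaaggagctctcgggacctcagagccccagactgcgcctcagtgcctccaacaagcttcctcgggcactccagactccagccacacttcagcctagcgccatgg
Nfkbia (chr12:55492598-55492897, - strand): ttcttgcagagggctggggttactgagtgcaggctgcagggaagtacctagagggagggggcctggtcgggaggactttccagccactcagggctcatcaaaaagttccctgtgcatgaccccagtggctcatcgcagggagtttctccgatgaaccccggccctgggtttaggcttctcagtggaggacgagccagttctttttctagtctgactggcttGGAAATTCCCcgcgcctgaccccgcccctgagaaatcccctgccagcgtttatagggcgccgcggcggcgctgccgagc
The motif in capitals, searched on both strands, was in 29 of 32851 promoters of that length (0.0883%). A wider form, which takes any base at the fourth, the fifth and the eighth position and so includes the first, was in 4.79% of them. Of the 26 members of the cytokine list with a RefSeq promoter 1 held the full motif, namely Nfkbia, and Cxcl2 is not in that list. Of the 12 that fell and have a promoter 7 held the wider form, and of all 26 members 9 did. These list counts are of genes with a match in any of their promoters, while 4.79% is a share of promoters. Genes of this list were chosen in part as known NF-kB targets, and a match is a description of the letters and not a measured site.

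Some early response genes also changed. Atf3, a stress-induced transcription factor, was at 8.93, 9.43 and 9.42 at 18 months and 10.74, 11.81 and 10.58 at 6 months (-1.78, SE 0.23, adjusted p = 0.000341). Jun, a subunit of AP-1, fell by 1.26 on the log2 scale (SE 0.20, adjusted p = 0.00131) and Gadd45b, a stress sensor, by 1.03 (SE 0.19, adjusted p = 0.00303). The phosphatase gene Dusp4 went the other way, with 6.99, 7.06 and 7.02 against 5.99, 5.69 and 6.42 (0.99, SE 0.18, adjusted p = 0.00303). Of 36 immediate early genes 6 fell and 1 rose, with a median of -0.46, and the number that fell was 10 and 13 without 6-month replicate 1 and 3, 4 without 6-month replicate 2, and 3 and 4 without 18-month replicate 1 and 3. Group weights, the 9 bone marrow arrays and equal ribosomal protein genes gave 3 each, and the 4 genes named here passed with the 9 arrays.

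Genes of mature neutrophils were lower as a group, and few passed the test. All 18 had a fold change below 0 (median -0.53), and 4 fell. Csf3r, the receptor of the granulocyte growth factor, was at 9.66, 9.67 and 9.42 at 18 months and 10.69, 11.38 and 10.63 at 6 months (-1.32, SE 0.29, adjusted p = 0.00895). Clec4e, a receptor for microbial glycolipids (-0.90), was lost without 6-month replicate 1 (-0.74) or 18-month replicate 1 (-0.92) or 3 (-0.78). The decoy receptor gene Il1r2 (-0.78) was lost without 6-month replicate 2 (-0.58) or any single 18-month array (-0.74 to -0.82), and G0s2 (-0.77), an inhibitor of lipolysis that neutrophils also carry, without any array but 6-month replicate 1 (-0.54 to -0.79). The count was 5 without 6-month replicate 1, 3 without 6-month replicate 3, 2 without 6-month replicate 2 or 18-month replicate 2 and 1 without 18-month replicate 1 or 3. It was 4 with the 9 bone marrow arrays, where 1.18% of all probe sets were lower, and no member was called with group weights, where 1.64% were. The mean level of the list was 10.10 to 10.24 at 18 months and 10.51 to 10.92 at 6 months. Csf3r, Clec4e and Hcar2 are genes of neutrophils, whose markers as a list thus moved in the same direction as the inflammatory genes. The part of this in the fall of the inflammatory genes was not tested.

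The circadian gene Ciart, a repressor within the molecular clock, had even values within each group. It was at 5.94, 5.95 and 5.96 at 18 months and 7.86, 8.03 and 7.95 at 6 months. The fall was 4.0-fold (-2.00, SE 0.25, adjusted p = 0.000242), and it had an adjusted p of 0.00243 with the 6 arrays alone. A second probe set of the gene gave -1.84. Per1, a period gene of the clock, had 9.04, 9.05 and 9.0 at 18 months and 9.75, 9.99 and 9.66 at 6 months (-0.77, SE 0.17, adjusted p = 0.00868). Of 18 clock genes 2 fell and 1 rose (median -0.07), against 1 and 2 with a median of 0.07 for equal ribosomal protein genes. The one that rose was the kinase gene Wee1 (0.80), which was lost without 6-month replicate 1 (0.55) or 18-month replicate 1 (0.79) or 2 (0.75) and with the 9 bone marrow arrays. Age and the hour of collection cannot be told apart, since no such hours were used here. The promoter of Ciart (RefSeq, GRCm38.p6) is shown because it holds 3 copies of the E-box CACGTG bound by clock factors, in capitals.
Ciart (chr3:95882179-95882478, - strand): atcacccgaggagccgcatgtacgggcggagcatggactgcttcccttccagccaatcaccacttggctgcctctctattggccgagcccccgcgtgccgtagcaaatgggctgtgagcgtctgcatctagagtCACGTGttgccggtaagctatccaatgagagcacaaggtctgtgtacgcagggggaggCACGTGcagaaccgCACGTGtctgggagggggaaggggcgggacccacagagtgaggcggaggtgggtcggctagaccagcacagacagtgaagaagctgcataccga
This motif, which reads the same on both strands, was in 7.15% of all promoters of that length.

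Genes of fat cells were low in the floated marrow cells, and some were lower still at 18 months. Fabp4, the fatty acid carrier of adipocytes, macrophages and capillary endothelium, was at 7.22, 7.28 and 6.50 at 18 months and 8.34, 8.91 and 7.83 at 6 months (-1.36, SE 0.22, adjusted p = 0.00167). Lep (leptin) was at 4.01, 4.16 and 3.98 at 18 months and 4.33, 5.59 and 5.20 at 6 months (-0.99, SE 0.21, adjusted p = 0.00885), below the median of the arrays in both groups, and was not called with the 9 bone marrow arrays (adjusted p = 0.0795). Adipoq differed by -0.93 (SE 0.29, adjusted p = 0.0558), with 6.97, 7.13 and 7.33 against 9.05, 7.82 and 7.35, so that the lowest 6-month array met the highest 18-month array. Without 6-month replicate 3 it passed (-1.29). Of the 27 genes of mature adipocytes 6 fell and 1 rose (median -0.31). The one that rose was Cd36, a fatty acid transporter that erythroid cells, platelets and macrophages carry as well (0.88, SE 0.13, adjusted p = 0.000626). The number that fell was 4 without 6-month replicate 2 or 18-month replicate 2 or 3, 4 with group weights, 2 with the 9 bone marrow arrays and 2 with the arrays made equal on ribosomal protein genes.

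Lipid handling genes gave a mixed picture. Of 21 genes of lipolysis and the lipid droplet 6 fell and none rose (median -0.28). The largest of these falls was that of Hcar2, given above with the genes of inflammation. Pnpla2, the lipase that starts triglyceride breakdown, was at 8.73, 8.62 and 8.81 at 18 months and 9.50, 9.42 and 9.15 at 6 months (-0.63, SE 0.11, adjusted p = 0.00309, and 0.0376 with the 9 bone marrow arrays). Lipe, the hormone-sensitive lipase, differed by -0.28 (SE 0.11, adjusted p = 0.106). Outside this list, Dgat2, the last enzyme of triglyceride synthesis, fell by 0.64 on the log2 scale (SE 0.13, adjusted p = 0.00543) and Cav1, the coat protein of caveolae, by 1.25 (SE 0.21, adjusted p = 0.00176). Slc27a4, a fatty acid transporter, differed by -0.38 (adjusted p = 0.191) and passed without 6-month replicate 2 (-0.63). Acss1, the mitochondrial acetyl-CoA synthetase, rose by 0.59 (SE 0.12, adjusted p = 0.00683). Dgat2 and Acss1 were not called with the 9 bone marrow arrays (adjusted p = 0.0634 and 0.0707). The lipolysis count was 4 without 6-month replicate 1 or 3, 3 without 18-month replicate 2, 2 without 18-month replicate 1 or 3, and 2 with group weights, with the 9 bone marrow arrays and with equal ribosomal protein genes.

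Lists that the study drew up from these same arrays are not independent evidence of a direction. Of its 25 genes of adipocyte differentiation 8 fell and none rose (median -0.17), against 5 and 2 with equal ribosomal protein genes, and of 11 lipolysis genes 3 fell, Hcar2 among them, and none rose (median -0.30). The first count was 5 without 18-month replicate 1. Of its 28 genes of mitochondrial function 4 rose and 6 fell (median -0.46). Prdx3, a mitochondrial peroxidase, had 11.05, 11.02 and 10.86 at 18 months and 8.97, 9.97 and 10.50 at 6 months (1.17, SE 0.23, adjusted p = 0.00552), and Ndufs1, the largest subunit of complex I, rose by 1.06 (SE 0.23, adjusted p = 0.00829). Neither was called with the 9 bone marrow arrays (adjusted p = 0.0676 and 0.074). Ndufa9 (0.73) was lost without any array but 6-month replicate 3 (0.38 to 0.82), and Sdha (0.50) without 6-month replicate 1 (0.30) or any single 18-month array (0.48 to 0.52). The calls of this list changed with single arrays. Without 6-month replicate 1, 2 rose and 1 fell, while 8 rose and 8 fell without 6-month replicate 2, 10 rose and 12 fell without replicate 3, and 2 rose and 2 fell without any single 18-month array. The balance also turned with the scaling, with 10 that rose and 1 that fell once the arrays were equal on ribosomal protein genes and 4 and 2 with median-centred arrays. The balance over all 23410 probe sets turned too, with 1402 higher and 422 lower in the first case and 1116 and 853 in the second. For this list group weights gave 2 and 2, and the 9 bone marrow arrays no rise and 1 fall.

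Antioxidant enzymes divided, with 4 that rose and 6 that fell of 31 (median 0.10). With arrays equal on ribosomal protein genes 7 rose and 3 fell, and with median-centred arrays 5 and 5. Gpx3, the secreted glutathione peroxidase, was at 7.97, 8.12 and 7.60 at 18 months and 10.19, 9.61 and 9.14 at 6 months (-1.75, SE 0.24, adjusted p = 0.000451). Nfe2l2, the transcription factor of the antioxidant response, fell by 0.84 on the log2 scale (SE 0.16, adjusted p = 0.00373). The mitochondrial enzymes Prdx3 and Txnrd2 (0.75, SE 0.16, adjusted p = 0.00718) rose, as did Prdx4 of the endoplasmic reticulum (0.60) and Gclc, which starts glutathione synthesis (0.49). Prdx4 was lost without 6-month replicate 1 (0.39) or 18-month replicate 2 (0.54), and Gclc without 6-month replicate 1 (0.43) or 2 (0.42) or 18-month replicate 2 (0.45). Without 18-month replicate 2, 2 rose, and without 6-month replicate 3, 7 rose. The number that fell was 4 without 6-month replicate 1 and 18-month replicate 1. Of the 6 genes named here only Gpx3 passed with the 9 bone marrow arrays (adjusted p = 0.0178), which gave 2 falls and no rise. Osgin1, a target of Nfe2l2 in other cells, was at 7.50, 7.37 and 7.40 at 18 months and 9.47, 9.10 and 8.86 at 6 months (-1.72, SE 0.17, adjusted p = 2.82e-05, and 0.0139 with the 6 arrays alone).

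Genes of the response to low oxygen fell in part. Epas1, the oxygen-sensitive transcription factor HIF-2 alpha, was at 7.01, 7.55 and 7.63 at 18 months and 8.81, 9.03 and 8.41 at 6 months (-1.35, SE 0.22, adjusted p = 0.00151). Egln3, a prolyl hydroxylase that such factors induce, fell by 1.25 on the log2 scale (SE 0.20, adjusted p = 0.00135) and Vegfa, the vessel growth factor, by 1.07 (SE 0.17, adjusted p = 0.00137). All 3 passed in each fit that left out 1 array and with the 9 bone marrow arrays. Of 26 genes of glycolysis and hypoxia 7 fell and 1 rose (median -0.11), against 5 and 2 with a median of 0.03 once the arrays were equal on ribosomal protein genes, and the 9 bone marrow arrays gave 4 falls. A further 3 genes passed with the 6 arrays alone, namely Lipg, an endothelial lipase (-1.32, adjusted p = 0.0139), and Vasp and Rhoc, regulators of the actin skeleton (-1.13 each, adjusted p = 0.0438 and 0.05). Olfr67, an olfactory receptor gene, was at 4.69, 4.45 and 4.93 at 18 months and 3.23, 3.33 and 3.16 at 6 months, all below the median of the arrays (1.45, adjusted p = 4.15e-06, and 0.0189 with the 6 arrays).

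Small noncoding RNAs were among the genes with large falls, and 6-month replicate 1 stood out in them. Rny3, a Y RNA that binds the Ro protein, was at 8.63, 8.94 and 8.06 at 18 months and 12.38, 10.27 and 9.94 at 6 months (-2.32, SE 0.44, adjusted p = 0.00373). Snora44, a guide for pseudouridylation, had 6.76, 6.27 and 5.65 against 9.70, 8.08 and 6.93 (-2.01, SE 0.43, adjusted p = 0.00872). Snord82, a guide for RNA methylation, had 6.26, 6.20 and 6.69 against 10.57, 7.82 and 7.06, a difference of -2.10. In all 3 genes 6-month replicate 1 was the highest by over 1. Snord82 fell short of the threshold without that array (-1.06) or any single 18-month array (-2.01 to -2.25), while Rny3 and Snora44 passed, and of the 3 only Rny3 passed with the 9 bone marrow arrays (adjusted p = 0.0442). Cstb, an inhibitor of cathepsins, had the same shape, with 6.95, 6.87 and 6.23 against 9.43, 7.95 and 7.42 (-1.58, SE 0.33, adjusted p = 0.00701). Rida, which breaks down reactive imines, showed the reverse, with 8.60, 8.54 and 8.62 against 6.18, 7.05 and 8.06 (1.49, SE 0.32, adjusted p = 0.00808). Cstb, Rida and Snora44 were not called with the 9 bone marrow arrays.

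The 14-month bone marrow arrays place these changes in time. Arrays of 18 months differed from those of 14 months at 3038 probe sets, 1111 higher (4.75%) and 1927 lower (8.23%), and at 2021 without 14-month replicate 3. The comparisons of 18 with 14 and with 6 months share the 18-month arrays, so their values are set side by side only. Some vascular and bone genes were already lower at 14 months. Cdh5 averaged 7.35 at 6 months, 5.86 at 14 months and 5.66 at 18 months, and Ibsp 9.77, 8.42 and 7.86 at the same ages. Of the endothelial list 12 of 21 were lower at 14 than at 6 months (3.58% of all probe sets were, and 8.66% were called in either direction) and 4 were lower at 18 than at 14 months. Of the matrix list 14 and 1 of 37 were lower in these comparisons.

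**Figure D4:**
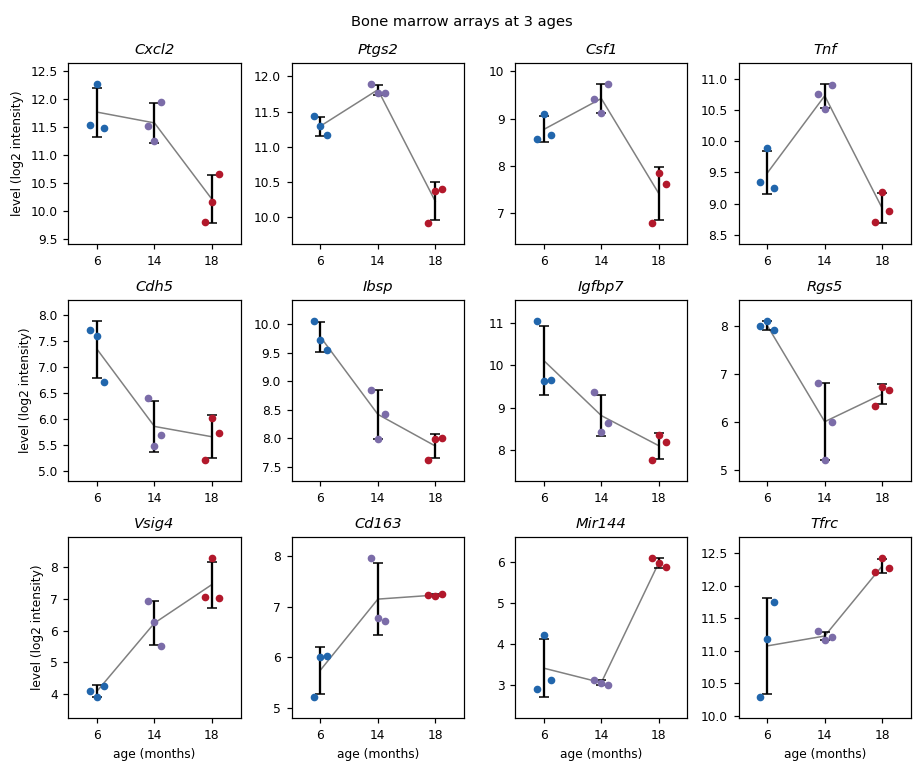
Level (log2 intensity, y axis of its own in each panel) of 12 genes in the bone marrow arrays of 6, 14 and 18 months (x axis), 3 arrays each with the mean ± SD and a line through the means. Cdh5, Ibsp, Igfbp7 and Rgs5 are lower at 14 and 18 than at 6 months, while Tnf is highest at 14 months and Mir144 is highest at 18 months.

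Inflammatory genes took another course. Tnf had 9.34, 9.89 and 9.25 at 6 months, 10.76, 10.52 and 10.90 at 14 months and 8.71, 9.19 and 8.89 at 18 months, so that the 14-month arrays were above all others. At 18 against 14 months Tnf was lower by a log2 difference of -1.80 (adjusted p = 1.04e-05), Ptgs2 by -1.58 and Csf1 by -2.00 (adjusted p = 3.83e-05 and 1.55e-05). Of the 32 cytokines and NF-kB targets 24 were lower at 18 than at 14 months (median -0.93), and 15 of 32 were higher at 14 than at 6 months (median 0.51), against 5.08% of all probe sets. Of the 36 immediate early genes 25 were lower at 18 than at 14 months. H2-K2, a class I histocompatibility gene with close copies that may share its signal, was at 8.11, 7.81 and 8.15 at 6 months, 9.34, 9.83 and 9.95 at 14 months and 6.32, 7.13 and 6.50 at 18 months. Slc2a6, a hexose transporter of activated macrophages, followed the same order (-0.98 at 18 against 6 months and -2.23 at 18 against 14 months).

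Of the 25 macrophage genes 8 were higher at 14 than at 6 months and none was higher at 18 than at 14 months. Part of the erythroid list was higher at 18 than at 14 months. Cd163 averaged 5.75 at 6 months, 7.15 at 14 months and 7.23 at 18 months, and its 2 older groups overlapped. Vsig4 averaged 4.08, 6.24 and 7.45 at these ages (adjusted p = 0.0477 between 18 and 14 months). Tfrc averaged 11.08, 11.23 and 12.30. Of 24 such genes 13 were higher and none was lower (median 0.77), against 6 that were lower at 14 than at 6 months. Of the DNA replication list 22 of 36 were higher at 18 than at 14 months and none was lower. The mitosis list took a similar course, with 15 of 31 higher and none lower at 18 than at 14 months (median 0.72). At 14 against 6 months 12 of the mitosis genes and 5 of the DNA replication genes were lower, and none of either list was higher. Mir687 averaged 4.89, 4.76 and 6.12 at the 3 ages, and Ciart averaged 7.95, 8.02 and 5.95.

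In epididymal cells age had its own pattern, with 1924 probe sets higher (8.22%) and 1875 lower (8.01%) at 18 than at 6 months. The difference between the changes of bone marrow and epididymal cells was tested directly and passed for 1993 probe sets, 818 more positive (3.49%) and 1175 more negative (5.02%) in bone marrow. Marrow and epididymal cells were taken from shared animals, per the methods, and the labels do not tie a marrow pool to an epididymal pool. With same-age, same-numbered pools as a random block 1833 probe sets passed. Cd163 and genes of antigen presentation and chemokine signalling gave examples of opposite changes. Cd163 changed by 1.48 in bone marrow and by -2.47 in epididymal cells, a difference of 3.95 (SE 0.38, adjusted p = 4.82e-06). H2-Aa changed by 0.65 in bone marrow and -2.31 in epididymal cells (difference 2.96, adjusted p = 7.82e-08), and Ccl7 by 0.95 and -1.17 in the same order (difference 2.11, adjusted p = 5.5e-06). For 13 of the 25 macrophage genes the change in bone marrow was the more positive and for none the more negative. In epididymal cells 15 of the 25 fell and none rose (median -0.74). In bone marrow 4 rose and 1 fell (median 0.25).

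**Figure D5:**
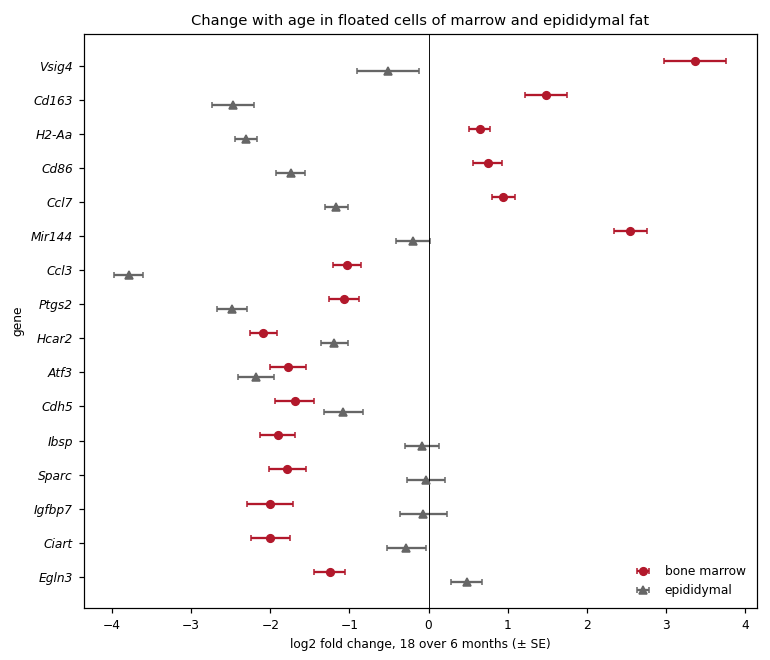
Log2 fold change at 18 over 6 months (x axis, ± SE) of 16 genes (y axis) in bone marrow (red circles) and epididymal cells (grey triangles). Cd163 stands at 1.48 in bone marrow and -2.47 in epididymal cells, while Atf3 and Cdh5 are below 0 in both.

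Bone genes and some stromal genes changed differently in bone marrow and epididymal cells. Ibsp changed by -1.91 in bone marrow and -0.09 in epididymal cells, where it was at 4.69 at 18 months and 4.78 at 6 months, below the median of an array (difference -1.82, adjusted p = 0.00128). Sparc changed by -1.78 and -0.03 (difference -1.75, adjusted p = 0.00359) and Igfbp7 by -2.00 and -0.06 (difference -1.94, adjusted p = 0.00722), with epididymal levels of 12.95 and 10.65 at 18 months. The endothelial list did not follow this. Its median was -0.73 in bone marrow and -0.72 in epididymal cells, where 13 of 21 fell, and 5 of the 21 genes differed between the cell types. The list of cytokines and NF-kB targets had 13 of 32 genes that fell in bone marrow and 18 in epididymal cells, with a median of -0.37 in bone marrow and -0.82 in epididymal cells, and Ccl3 fell less in bone marrow (-1.03) than in epididymal cells (-3.79, difference 2.76, adjusted p = 3.51e-06). One epididymal array of 6 months, replicate 1, carried a higher neutrophil signal (mean level of the list 7.47, against 5.57 and 5.58 in the other 2). Without it 2066 probe sets differed between the cell types. The count was 1094 without epididymal 18-month replicate 1 and 3014 without bone marrow 6-month replicate 3.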

How the data were processed

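RNA of floated bone marrow cells and of epididymal adipocytes, labelled peripheral, was measured on Affymetrix Mouse Gene 1.0 ST arrays, 3 pools for each of 6 groups. The deposited values are log2 intensities, which the authors made with GCRMA background correction and quantile normalization in Partek. RMA is also named in the submitters' processing notes, and versions and builds are not given in the sources used here. Arrays carry no depth, so their number limits the precision. Of 35556 probe sets, 23410 that name a gene were tested, and no column of other samples was left out.

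A mean for each group was fitted over the 18 arrays with limma 3.58.1 (R 4.3.3), with moderated tests and Benjamini-Hochberg adjustment at 0.05, after the group model of the study's methods. The fit was also run on simulated data with independent errors, no outlying array and no shift of a whole array. Those data cannot show the effect of such an array or shift. Nothing says that pools share no animals or handling, so p-values measure the spread between pools. An exact permutation test of 3 against 3 arrays cannot go below 0.10, so none is given. Tables were made with Python 3.11.15. No comparison columns of the authors were used.

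Genes were named by size of change (the 15 largest rises and falls with groups apart and a mean of at least 6, the 8 largest differences between cell types and between 18 and 14 months), by passing in the 6 arrays alone, as up to 6 members of each list, or as genes the study names. Mir451a, Mir19b-1, Mir19a, Add2, Dlx5, Nfkbia, Cxcl10, Ccl7, Ccl8, Cxcl5, Prdx4 and Gclc were added after their values were seen. Members and lists were chosen with earlier results of these data known. Where several probe sets named 1 gene, that of highest mean was used. Some genes are not reported here.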

Additional observations from a re-analysis of the deposited data

Results flagged for a closer look

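The change at 18 against 6 months was set against that of epididymal cells by a test of the difference itself (limma, all 18 arrays, adjusted over all probe sets), and each gene below passed it. Values are the bone marrow change minus the epididymal change on the log2 scale. For these genes the change was more positive in bone marrow, which need not mean a rise there. Ccl3 (-1.03), Ptgs2 (-1.07), Nfkbia (-0.73) and Pecam1 (-0.21) had negative marrow changes. Their epididymal changes were more negative (-3.79, -2.48, -1.47 and -1.06 in that order). Ctla4, Icos and Ccr3 hardly changed in epididymal cells (-0.01, 0.01 and 0.05), so their difference mostly repeats the marrow change. The T cell list averaged 4.78 to 5.08 in epididymal cells, below the median of an array. The difference was 3.95 for Cd163, 3.88 for Vsig4, 2.99 for H2-Ab1, 2.96 for H2-Aa, 2.83 for Igkv6-20, 2.76 for Ccl3, 2.75 for Mir144 and 2.58 for Cd5l. It came to 2.49 for Cd86, 2.11 for Ccl7, 2.02 for Tspan8, 2.01 for Timd4, 1.84 for Cxcl10, 1.76 for Ctla4, 1.68 for Abcg2 and 1.67 for P2ry10. Values of this kind were 1.65 for Bpgm, 1.63 for Olfr67, 1.53 for Hbq1a, 1.42 for Ccr3, 1.41 for Ptgs2, 1.35 for Cxcl5, 1.32 for Mir687 and 1.29 for Mir19b-1. Smaller differences were 1.28 for Spic, 1.18 for Gclc, 1.16 for Cpox, 1.11 for Mir451a, 1.10 for Ccl8, 1.09 for Slc25a39, 1.08 for Wee1 and 0.91 for Add2. Then came 0.89 for Icos, 0.86 for Cd28, 0.85 for Pecam1, 0.81 for Txnrd2, 0.74 for Nfkbia, 0.71 for Cd36 and 0.63 for Acss1, in order of size.

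For the others the change was more negative in bone marrow. Some of them, such as Sparc and Igfbp7, hardly changed in epididymal cells (-0.03 and -0.06). Hcar2 was lower at 18 months in both, with a marrow change of -2.09 against -1.19. The difference was -2.32 for Rny3, -2.23 for Col1a1, -1.94 for Igfbp7, -1.88 for Bgn, -1.82 for Ibsp, -1.75 for Sparc, -1.73 for Egln3 and -1.72 for Ciart. It came to -1.57 for Gadd45b, -1.56 for Cstb, -1.44 for H2-K2, -1.42 for Cav1, -1.32 for Pcolce, -1.23 for Csf1, -1.17 for Ebf3 and -1.15 for Lep. Values of this kind were -1.12 for P2ry2, -1.08 for Vasp, -0.99 for G0s2, -0.98 for Stab2, -0.98 for Lipg, -0.94 for Osgin1, -0.91 for Irak3 and -0.90 for Hcar2. Smaller differences were -0.89 for Nid1, -0.86 for Alpl, -0.86 for Dgat2, -0.79 for Slc2a6, -0.76 for Nfe2l2 and -0.64 for Rhoc. One epididymal array of 6 months, replicate 1, had more neutrophil and erythroid signal than the other 2 of its group. Without it 2066 probe sets differed between the cell types, against 1993 with it. Its part in the difference of each gene above was not tested. Some genes of both paragraphs lay near the threshold of that limma test. The adjusted p was 0.048 for Igkv6-20, Bpgm, Alpl and G0s2, 0.0472 for Icos and 0.045 for Cstb. All these differences are those of the full model, whose count fell to 1094 without epididymal 18-month replicate 1.

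Probe sets that name no gene were outside the comparisons. Of these 12146, 258 were higher and 194 lower at 18 than at 6 months in bone marrow (3.72% called).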

How the results depend on the processing

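The calls depended on how the error was estimated. Against 790 probe sets higher and 1201 lower at 18 months, there were 5 and 13 with the 6 compared arrays alone, 92 and 276 with the bone marrow arrays, 326 and 635 with array weights, 230 and 385 with group weights, and 496 and 865 with an ordinary analysis of variance. Arrays equal on ribosomal protein genes gave 1402 and 422, a fold of at least 2 gave 75 and 167, and an adjusted p under 0.01 gave 203 and 416. With 1 array left out the counts were 326 to 1795 higher and 650 to 2063 lower. Median-centred arrays gave 1116 and 853 and repeated quantile normalization 1151 and 1080, and the 3 scalings shifted the overall median by 0.07, 0.03 and, for ribosomal protein genes, 0.14. The 1993 differences between cell types became 803 at 2-fold, 739 at an adjusted p under 0.01 and 1094 to 3014 with 1 array left out. The 3038 differences between 18 and 14 months became 1805 with the bone marrow arrays, 458 at 2-fold, 1642 at an adjusted p under 0.01 and 2021 to 2507 with 1 array left out. Of 1438 list genes 255 passed, and 4, 67, 148, 101 and 168 did with the 6 arrays, the bone marrow arrays, array weights, group weights and the analysis of variance, and 148 to 436 with 1 array left out. The cause was not tested. No named gene turned its direction, but the overall median of -0.05 became 0.02 with median-centred arrays and 0.09 with equal ribosomal protein genes, and the balance of higher and lower calls turned with it. Same-numbered bone marrow arrays of 18 and 6 months, which come from different mice, did not deviate together (correlations 0.09, -0.05 and 0.08). Between marrow and epididymal arrays of the same age and number the correlations ran from -0.14 to 0.15. The labels do not say that a number marks a shared pool, so the block is not the main result. Marrow and epididymal cells were taken from shared animals, and with same-age pools as a random block (correlation -0.04) 1833 probe sets differed between the cell types, against 1993. With the replicate block 743 were higher and 1214 lower, 2043 differed between cell types, 3031 between 18 and 14 months and 248 list genes passed. Of the 119 named genes past the test, 102 were lost with the 6 arrays alone and 54 with the bone marrow arrays.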

Other observations

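Part of the B lineage genes were higher at 14 months than at 6 or 18 months. Of 23 genes of B cell progenitors 11 were higher at 14 than at 6 months and none was lower (median 0.68), and of 18 genes of mature B cells 16 were higher and none was lower (median 1.09), against 5.08% of all probe sets higher. At 18 against 14 months 18 of the progenitor genes were lower and none was higher (median -0.82), and 14 of the mature B cell genes were lower and none was higher (median -0.86), against 8.23% of all probe sets lower. At 18 against 6 months 1 progenitor gene was higher and 1 lower, and 1 mature B cell gene was higher. Megakaryocyte genes, of which none of 18 was called at 18 against 6 months, had mean levels of 9.31 to 9.68 at 18 months and 8.58 to 9.83 at 6 months, with the low value in replicate 2.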
